A study of Mus musculus with 12 samples.

Results

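RNA of thymocytes that had lost the DNA methyltransferase Dnmt1 (KO, 3 mice) was compared with RNA of control thymocytes (Ctrl, 3 mice), and particular attention was given to the changes seen in each of the 3 KO libraries. These were 6 of the 12 RNA-seq libraries of the series, chosen by their labelled genotype, with the other 6 from mice carrying the NPM-ALK transgene. Ctrl mice were DNMT1 fl/fl males of 25, 21 and 20 weeks (replicates 1 to 3), and KO mice were DNMT1 fl/fl CD4-CRE, a male of 20 weeks, a female of 20 weeks and a male of 21 weeks. None of the 6 carried the transgene, and every one carried the floxed allele. Cre under Cd4 control acts in T-lineage cells from the double-positive stage of thymocyte development, so other cells of the organ keep an intact gene. Each library came from a separate mouse, the tissue was homogenized without a sort, and the labels give no litter or batch. KO replicate 2 was the only female, so its sex and anything else particular to it cannot be told apart.

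DNMT1 copies the methyl marks of cytosines in CpG dinucleotides onto the newly made DNA strand at each replication, and cells that divide without it lose methylation passively. In somatic cells, promoter methylation is known to keep many germline genes silent, among them genes of meiosis and of the germ cell RNA-binding proteins. Other genes known to depend on it are imprinted genes, which are read from the allele of a single parent, and endogenous retroviruses. Thymocytes pass through a phase of rapid division before they rearrange their T-cell receptor genes and are selected.

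Levels are given as CPM (reads on the gene, scaled to 1000000 reads on all genes), with TMM library factors, and differences as log2 fold changes of KO over Ctrl with their standard errors (SE). The Ctrl libraries held 17957289 to 18864327 reads on genes and the KO libraries 12739959 to 18279968, so that 3 reads stood for 0.159 to 0.167 CPM in Ctrl, with 0.164 to 0.235 CPM in KO. CPM carries no correction for gene length and is compared here only within a gene or summed over a list.

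Dnmt1 itself, the check on the labels, was at 445, 487 and 400 CPM in Ctrl and at 240, 206 and 244 CPM in KO. All KO libraries lay under all Ctrl libraries. The log2 fold change was -0.95 (SE 0.227), with an unadjusted p of 0.00172 and an adjusted p of 0.787 by edgeR (quasi-likelihood F-test, adjusted after Benjamini and Hochberg over all genes). The adjusted p was 0.0435 to 1 over 16 other settings, under 0.05 in 1 of them. The reads were counted over the whole gene, so any from outside the deleted stretch, and those of cells without Cre, are included.

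The KO libraries did not resemble one another as closely as the Ctrl libraries did. Pearson's r of log CPM across genes was 0.977 to 0.984 between Ctrl libraries and 0.883 to 0.942 between KO libraries, with the lowest values for pairs that included KO replicate 2. Marker lists of other cell types marked 2 libraries. B cell markers, such as Cd79a, summed to 1309 to 1592 CPM in Ctrl and to 2528, 9307 and 1159 CPM in KO. Plasma cell markers summed to 352 to 536 CPM in Ctrl and to 469, 4683 and 356 CPM in KO, and myeloid markers to 995 to 1131 CPM in Ctrl and 1518, 4254 and 1031 CPM in KO. KO replicate 2 was thus far above the rest in all 3 lists, and its thymocyte stage genes, such as Cd4, Cd8a and Rag1, summed to 9727 CPM against 18676 to 20390 CPM in Ctrl. In the other KO libraries the thymocyte genes summed to 19542 and 18950 CPM, within the Ctrl range. Heart muscle markers summed to 20.7 to 68.6 CPM in Ctrl, to 18.8 and 126.5 CPM in KO replicates 1 and 2, and to 8197 CPM in KO replicate 3. Nppa, the atrial natriuretic peptide of heart muscle, stood at 2248 CPM in that library and at most at 0.431 CPM in the other 5. In whole-tissue RNA, fewer cells of a type and less RNA per cell cannot be told apart. No marker list had a member at least 2 times higher, or 2 times lower, in every KO library than in every Ctrl library.

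**Figure D1:**
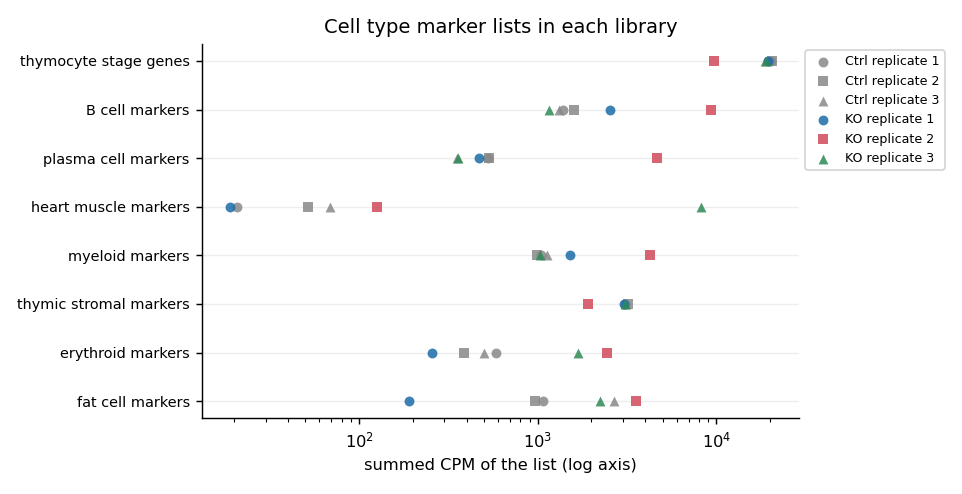
Summed CPM (log axis) of each cell type marker list in the 3 Ctrl libraries (grey) and the 3 KO libraries (colours), 1 point per library. KO replicate 2 holds 9307 CPM of B cell markers and KO replicate 3 holds 8197 CPM of heart muscle markers, and the other libraries lie far below these values.

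Most genes past 2-fold were so in a single KO library. Of 14606 genes with a KO mean of at least 1 CPM, 183 were at least 2 times above the highest Ctrl library in KO replicate 1, 1708 in KO replicate 2 and 397 in KO replicate 3. Only 29 of them passed in all 3. KO replicate 2 alone accounted for 1518 of the genes and KO replicate 3 alone for 241. The genes that stood at least 4 times above all of the other 5 libraries numbered 8 in KO replicate 1, 427 in KO replicate 2 and 109 in KO replicate 3, against 0, 2 and 0 in the Ctrl libraries. In KO replicate 2 they were led by immunoglobulin segments such as Ighv3-2 at 1601 CPM, and in KO replicate 3 by Nppa. In KO replicate 1 they included the germline helicase gene Tdrd9. Genes at least 2 times under the lowest Ctrl library numbered 320, 1224 and 76 in KO replicates 1 to 3, and 7 of them passed in all 3.

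**Figure D2:**
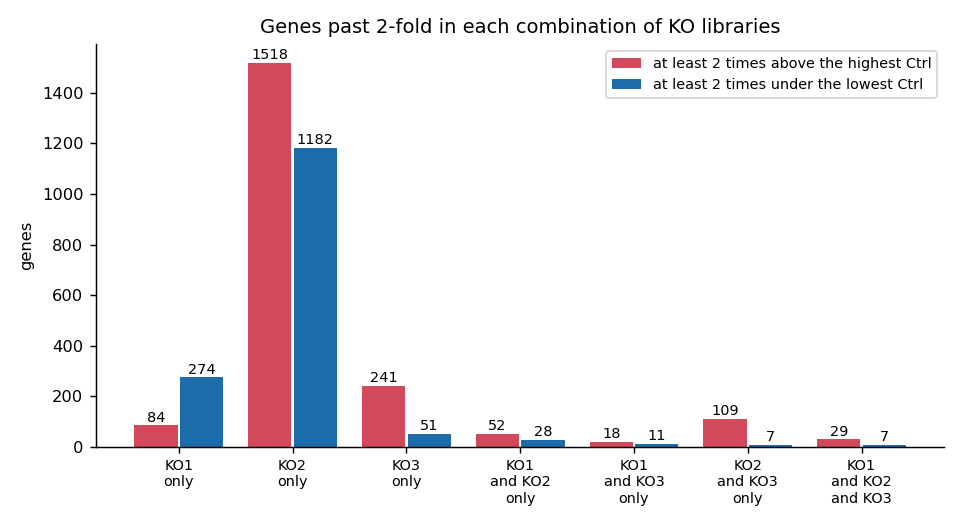
Number of genes at least 2 times above the highest Ctrl library (red) or at least 2 times under the lowest (blue), by the exact combination of KO libraries (KO1 to KO3) in which this held. KO replicate 2 alone holds 1518 higher and 1182 lower genes, and the 3 KO libraries together hold 29 and 7.

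Across 16052 genes tested, 3 passed an adjusted p of 0.05 with a change of more than 2-fold, or 0.0187% of the genes, and all 3 were higher in KO. They were Gh, Gm16572 and Tuba3b. At an unadjusted p of 0.05, 646 genes were higher in KO (4.02%) and 240 lower (1.5%), while the median log2 fold change over all genes was 0.04. DESeq2 called 42 genes on the same table, 38 of them higher. Without KO replicates 2 and 3, edgeR called 1 gene, Gh, with the spread taken from the other groups, and in the fits restricted to the 6 KO and Ctrl libraries it called 0, with 813 genes at an unadjusted p under 0.05. Leaving out Ctrl replicate 3 also left 0 called, with 965 genes at an unadjusted p under 0.05, and Tuba3b was lost when any 1 of the KO libraries was left out.

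**Figure D3:**
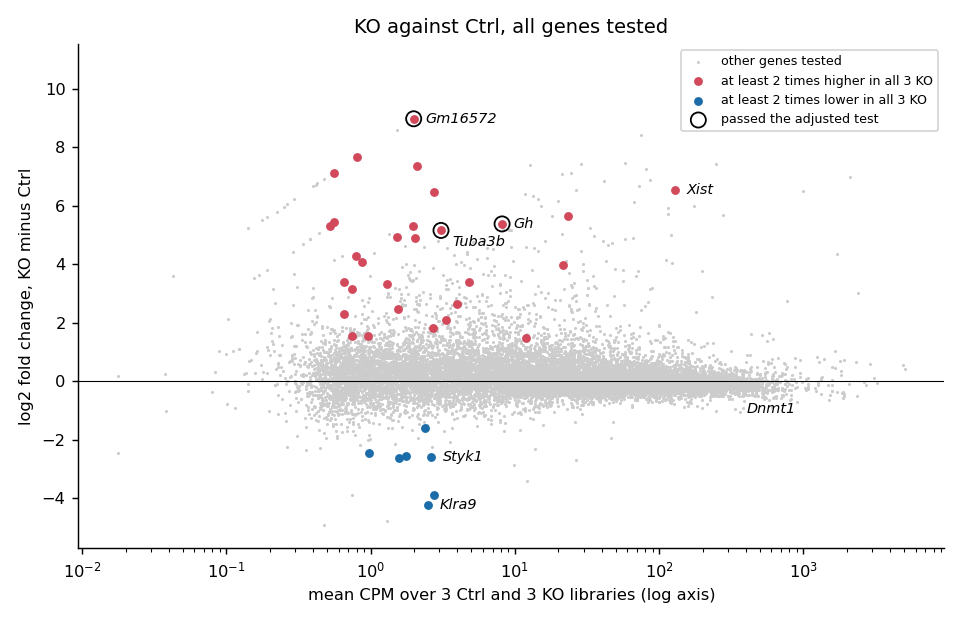
Log2 fold change of KO over Ctrl against the mean CPM over the 6 libraries (log axis) for every gene tested, with the genes at least 2 times higher (red) or lower (blue) in all 3 KO libraries and the 3 genes that passed the adjusted test (circles). The coloured genes lie mostly at low levels, and Dnmt1 lies under 0 at a high level.

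Gh encodes growth hormone, which is made by somatotroph cells of the pituitary. The gene (ENSMUSG00000020713.6, chr11:106300271-106301865, minus strand, GRCm38) was at 0.211, 0.536 and 0.377 CPM in Ctrl and at 18.7, 9.82 and 19.3 CPM in KO. The lowest KO library was 18.3 times the highest Ctrl library. The log2 fold change was 5.38 (SE 0.483), with an adjusted p of 0.00574 by edgeR's quasi-likelihood test. Its neighbour Cd79b, a B cell receptor chain, was at 17.4 to 24.7 CPM in Ctrl and at 16.4, 401 and 18.5 CPM in KO, so that Gh was lowest in the KO library where Cd79b was highest. The neighbour on the other side, Tcam1, was under 1 CPM in all 6 libraries.

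Gm16572 is annotated as an antisense transcript on the plus strand (chr12:81587799-81589640), inside the region of Med6 on the other strand. No read was counted in any Ctrl library, and KO held 4.24, 4.39 and 3.30 CPM from 80, 51 and 49 reads. Against a floor of 3 reads in each Ctrl library, its mean was at least 24.8-fold higher in KO (adjusted p = 0.0060, edgeR's quasi-likelihood test). Med6, a subunit of the Mediator complex, was at 27.8 to 35.4 CPM in Ctrl, with 25.3 to 29.1 CPM in KO. The paper describes stranded libraries. Whether the counting kept the strands apart is not given in the sources used here, so reads of the overlapping genes may be mixed.

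Tuba3b (chr6:145615757-145621479, plus strand) encodes an alpha-tubulin found mainly in testis. It was at 0.317, 0.0536 and 0.108 CPM in Ctrl and at 5.46, 6.11 and 6.40 CPM in KO. The 3 KO values were close together and the lowest was 17.2 times the highest Ctrl value. The log2 fold change was 5.16 (SE 0.636, adjusted p = 0.0398 by edgeR's quasi-likelihood test). The adjusted p rose to as much as 0.651 under other settings. The near-identical gene Tuba3a was at 0, 0 and 0.054 CPM in Ctrl and 0.636, 0.947 and 0.404 CPM in KO, and reads of this pair may be divided between them.

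Among the genes tested, 29 (0.181%) were at least 2 times higher in every KO library than in any Ctrl library, and 7 (0.0436%) were at least 2 times lower. The choice used the same values as the test, so the p-values of these genes are a description. Of the 29, 28 had an unadjusted p below 0.05, as did 6 of the 7. With a threshold of 1.5 times there were 53 and 21 such genes, and with 4 times 14 and 2. The genes just inside the limit were Fcgr4 and Cd5l, with a lowest KO value 2.03 times the highest Ctrl value for both, and those just outside were Sectm1a with 1.93 times and Igkv3-4 with 1.91 times. Among lower genes Lrrc73 was just inside with 2.14 times and Gp5 just outside with 1.86 times.

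Low levels in Ctrl were the most common feature of the 29 genes. In 11 of them (37.9%) no Ctrl library held more than 3 reads, against 0.498% of all genes tested, and 23 (79.3%) had a Ctrl mean under 1 CPM, against 11.5%. A ratio rule passes more easily from a low base, so these shares are a description of the class. Their median was 0.16 CPM in Ctrl and 3.85 CPM in KO. The class held 21 protein-coding genes (72.4%, against 87.9% of all genes tested). It had 4 genes each on chromosomes 6 and 8 (13.8%, against 5.73% and 5.03%) and 3 on X (10.3%, against 3.10%). The immunoglobulin segments Igkv6-25 and Igkv6-20 are among those on chromosome 6. The KO value was highest in replicate 2 for 17 genes, in replicate 1 for 7 and in replicate 3 for 5. Over all 16052 genes tested these numbers were 6549, 5156 and 4347. For 16 genes of the class the KO values lay within 2-fold of one another, as they did for 9636 of all genes tested.

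**Figure D4:**
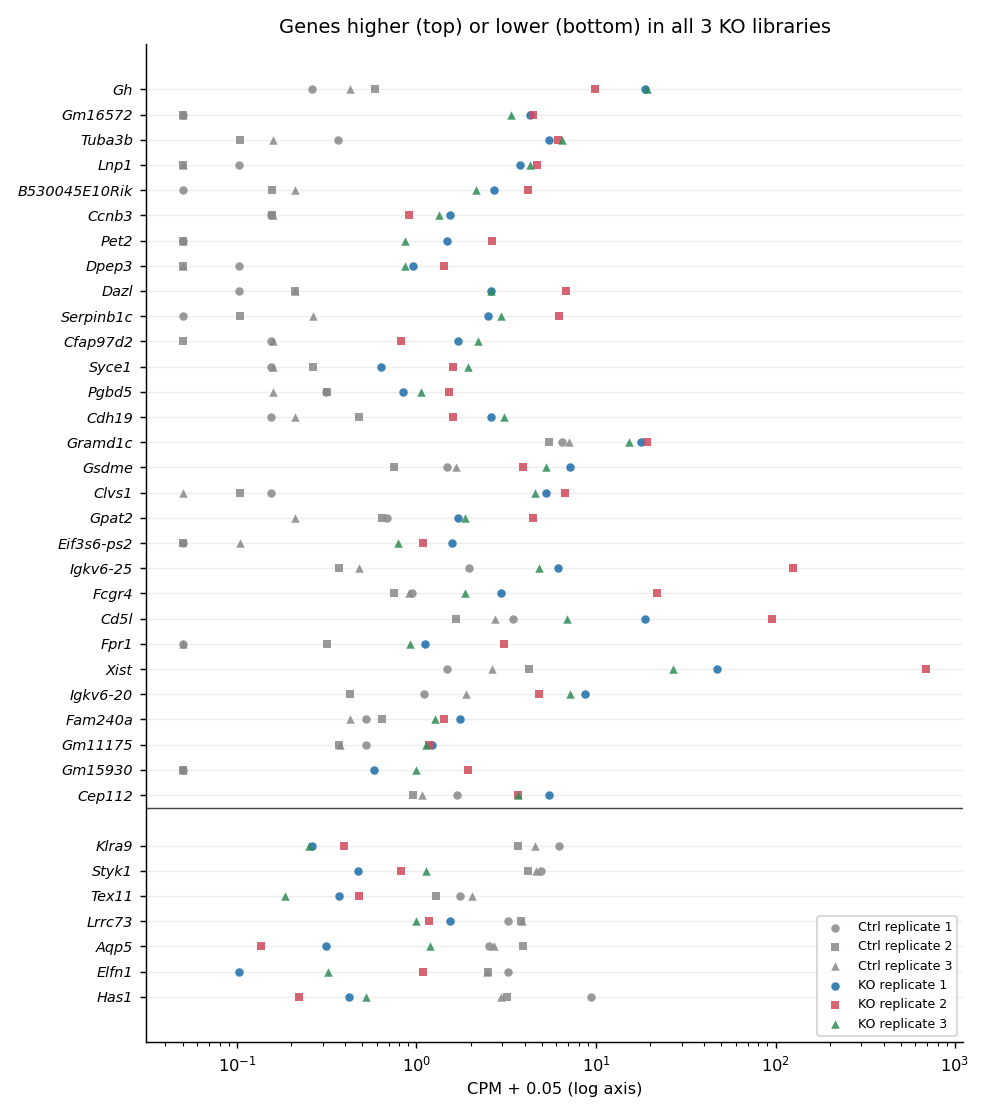
CPM plus 0.05 (log axis) in each Ctrl library (grey) and KO library (colours) for the 29 genes higher and the 7 genes lower in all 3 KO libraries. Grey and coloured points do not overlap in any line, by the rule that chose the genes, and KO replicate 2 stands apart for Igkv6-25, Fcgr4, Cd5l and Xist.

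Several germline genes were among the 29, and 3 of them, Dazl, Dpep3 and Syce1, belonged to the list of germline genes. Dazl, an RNA-binding protein that germ cells need, was at 0.0528, 0.161 and 0.162 CPM in Ctrl and at 2.54, 6.72 and 2.56 CPM in KO (log2 fold change 4.89, SE 0.896). Dpep3, a membrane dipeptidase of the testis, had 1 read in the 3 Ctrl libraries together and was at 0.901, 1.38 and 0.809 CPM in KO, a ratio of 55.7 (95% counting interval 9.51 to 2250). Syce1, part of the central element that holds paired chromosomes together in meiosis, was at 0.106, 0.214 and 0.108 CPM in Ctrl and 0.583, 1.55 and 1.89 CPM in KO. The groups did not overlap for any of the 3, which the rule that chose the 29 genes fixed in advance. The levels in KO were those of 45 to 164 reads over the 3 libraries. Adjusted p-values by edgeR's quasi-likelihood test were 0.254 for Dazl and Dpep3 and 0.456 for Syce1. Ccnb3, a cyclin of meiotic cells on the X chromosome, was at 0.106 to 0.108 CPM in Ctrl and 1.48, 0.861 and 1.28 CPM in KO. Gpat2, an acyltransferase of the testis named here after its values were seen, was at 0.634, 0.590 and 0.162 CPM in Ctrl and 1.64, 4.39 and 1.82 CPM in KO.

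The promoters of the germline genes are shown because CpG is the substrate of DNMT1. Each run holds the 250 bases before and 50 bases after the RefSeq start, 5' to 3' on the strand of the gene (GRCm38.p6), with each CpG in capitals. Xist and Cd5l, which were also higher in all 3 KO libraries, are given for comparison.
Dazl (chr17:50293571-50293870, minus strand, 28 CpG): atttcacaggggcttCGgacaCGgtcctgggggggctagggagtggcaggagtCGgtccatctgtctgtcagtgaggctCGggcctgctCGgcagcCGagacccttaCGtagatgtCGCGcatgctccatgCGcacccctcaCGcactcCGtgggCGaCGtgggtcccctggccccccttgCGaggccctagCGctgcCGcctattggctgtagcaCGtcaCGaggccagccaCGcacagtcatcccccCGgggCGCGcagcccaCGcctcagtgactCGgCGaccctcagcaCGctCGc
Tuba3b (chr6:145615713-145616012, plus strand, 16 CpG): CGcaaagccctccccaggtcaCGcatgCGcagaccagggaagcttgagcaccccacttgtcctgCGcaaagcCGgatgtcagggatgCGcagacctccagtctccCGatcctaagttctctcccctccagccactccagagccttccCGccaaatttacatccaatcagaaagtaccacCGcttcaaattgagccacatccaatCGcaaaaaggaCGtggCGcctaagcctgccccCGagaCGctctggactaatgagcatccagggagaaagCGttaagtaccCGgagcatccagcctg
Dpep3 (chr8:105979370-105979669, minus strand, 12 CpG): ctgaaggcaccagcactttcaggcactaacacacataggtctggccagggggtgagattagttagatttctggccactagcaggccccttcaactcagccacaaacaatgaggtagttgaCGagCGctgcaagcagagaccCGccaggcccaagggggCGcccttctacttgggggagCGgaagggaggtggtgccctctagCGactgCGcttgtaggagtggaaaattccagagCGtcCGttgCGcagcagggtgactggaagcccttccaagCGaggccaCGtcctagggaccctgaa
Syce1 (chr7:140787805-140788104, minus strand, 14 CpG): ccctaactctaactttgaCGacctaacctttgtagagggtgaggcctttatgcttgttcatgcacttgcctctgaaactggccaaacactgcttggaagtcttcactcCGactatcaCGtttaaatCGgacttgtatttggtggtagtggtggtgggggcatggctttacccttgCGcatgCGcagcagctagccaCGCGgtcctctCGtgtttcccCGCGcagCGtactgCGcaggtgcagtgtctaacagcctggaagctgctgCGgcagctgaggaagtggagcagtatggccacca
Xist (chrX:103483184-103483483, minus strand, 15 CpG): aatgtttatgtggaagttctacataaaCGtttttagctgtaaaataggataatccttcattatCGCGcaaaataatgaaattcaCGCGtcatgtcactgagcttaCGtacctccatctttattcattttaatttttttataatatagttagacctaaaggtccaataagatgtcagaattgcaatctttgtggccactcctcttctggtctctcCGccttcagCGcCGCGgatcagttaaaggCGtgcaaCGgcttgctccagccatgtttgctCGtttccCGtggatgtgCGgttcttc
Cd5l (chr3:87357631-87357930, plus strand, 0 CpG): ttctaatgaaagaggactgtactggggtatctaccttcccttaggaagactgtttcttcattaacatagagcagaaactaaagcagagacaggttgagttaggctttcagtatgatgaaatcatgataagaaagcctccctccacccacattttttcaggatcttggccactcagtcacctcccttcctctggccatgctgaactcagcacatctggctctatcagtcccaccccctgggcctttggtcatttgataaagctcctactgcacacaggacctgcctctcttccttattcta

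Dazl held the most CpG of these 6 windows and Cd5l none. At least 1 CpG was present in 99% of the 11808 windows found for the genes tested, and at least 10 in 76.5% of them, and the 5 windows with 12 or more CpG belong to this majority. A window was found for 18 of the 29 genes (62.1%) and for 73.6% of all genes tested. Of the 18, 10 (55.6%) held at least 10 CpG, against 76.5% of all windows. In 6 of the 18 (33.3%) there were 3 CpG or fewer, against 8.75% of all windows. Among genes tested with a Ctrl mean under 1 CPM, these shares were 50% and 21%. The windows printed above were picked and do not stand for the class, and class genes without a window are not covered. These are reference sequences, and their methylation was not examined here.

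Of 60 germline genes listed, 31 passed the filter on low counts. That filter used all 12 libraries, so members silent in Ctrl passed only through a group in which they were expressed. This can tilt the counts and the median toward higher values in KO, and they are a description. At an unadjusted p under 0.05, 6 of the 31 were higher in KO and 1 lower, where 4.02% and 1.5% of all genes were. The median of the list was 0.14 against 0.04 over all genes. The median was 0.044 in the fit on the 6 KO and Ctrl libraries and -0.21 over the members with at least 10 counts in every library, a filter that removes the genes silent in Ctrl. The list summed to 409 to 477 CPM in Ctrl and to 485, 186 and 490 CPM in KO, so that its sum, set by members expressed in control thymocytes, was lowest in KO replicate 2. The 6 were Dpep3, Dazl, Syce1, Tex19.2, Tex19.1 and Tdrd9. Tex19.1 and Tex19.2, which guard germ cells against transposons, reached only 0.135 to 0.431 CPM and 0.202 to 0.689 CPM in KO, with at most 0.054 CPM in Ctrl. Tdrd9 was at 0.107 to 0.740 CPM in Ctrl and at 9.65, 0.689 and 1.21 CPM in KO, so its change rested on KO replicate 1, and KO replicate 2 lay within the Ctrl range. Other members of the list were expressed in control thymocytes and did not reach that threshold. Prdm9, which directs meiotic recombination and was named after its values were seen, was at 5.36 to 7.98 CPM in Ctrl and 8.43, 10.4 and 6.27 CPM in KO. Without KO replicate 2, the list had 6 members higher and 1 lower at this threshold, and the median was 0.19.

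By the sign of the fold change, 17 of the 31 germline genes tested were higher in KO and 14 lower. Tex11 was the only 1 of them lower at an unadjusted p under 0.05 by edgeR. This X-linked gene, needed for chromosome pairing in spermatocytes, was at 1.69, 1.23 and 1.99 CPM in Ctrl and at 0.318, 0.431 and 0.135 CPM in KO. Its highest KO library was 2.86 times under its lowest Ctrl library (log2 fold change -2.46, SE 0.532, adjusted p = 0.709 by edgeR's quasi-likelihood test).

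Other members with almost no reads in Ctrl were not on the germline list. Lnp1 had 1 read in the 3 Ctrl libraries together and stood at 3.71, 4.65 and 4.25 CPM in KO, a ratio of 232 (95% counting interval 41.1 to 9197). Clvs1, a lipid-binding protein of clathrin-coated vesicles, had 3 reads in Ctrl and was at 5.19, 6.63 and 4.52 CPM in KO, a ratio of 99.9 (33.8 to 488). The KO values of both genes varied by less than 1.5 times. Serpinb1c, of a family of protease inhibitors, was at 0 to 0.216 CPM in Ctrl and 2.44, 6.20 and 2.90 CPM in KO. The long non-coding RNA B530045E10Rik was at 0 to 0.162 CPM in Ctrl and 2.65, 4.13 and 2.09 CPM in KO. Pet2, on X, had no read in Ctrl and was at 1.43, 2.58 and 0.809 CPM in KO, at least 10.03-fold higher. Adjusted p-values of these genes lay above 0.05 by edgeR's quasi-likelihood test, at 0.0601 for Lnp1, 0.864 for Clvs1, 0.254 for Serpinb1c, 0.0851 for B530045E10Rik and 0.254 for Pet2.

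Cfap97d2, Pgbd5, a gene derived from a piggyBac transposase, and Cdh19, a cadherin, had Ctrl levels of 0 to 0.429 CPM. Cfap97d2 was at 1.64, 0.775 and 2.16 CPM in KO, Pgbd5 at 0.795, 1.46 and 1.01 CPM and Cdh19 at 2.54, 1.55 and 3.03 CPM. The antisense gene Gm11175, which overlaps Jund on the other strand, was at 0.322 to 0.476 CPM in Ctrl, with 1.08 to 1.17 CPM in KO, while Jund was at 108 to 154 CPM and 91.5 to 114 CPM. The other members with low Ctrl values were Fam240a and the pseudogenes Eif3s6-ps2 and Gm15930, all with KO means of 1.10 to 1.43 CPM.

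Gramd1c, Gsdme and Cep112 were members with a Ctrl mean above 1 CPM and no known tie to other cell types. Gramd1c, a carrier of cholesterol between membranes, was the highest of the 3 in Ctrl, at 6.39, 5.41 and 7.06 CPM, and was at 17.8, 19.3 and 15.2 CPM in KO. The lowest KO value was 2.15 times the highest Ctrl value, with a log2 fold change of 1.47 (SE 0.329). Gsdme, or gasdermin E, forms membrane pores when cut by caspase 3 and was at 1.43, 0.697 and 1.62 CPM in Ctrl and 7.15, 3.87 and 5.19 CPM in KO. Cep112, a centrosomal protein, was at 0.911 to 1.64 CPM in Ctrl, with 3.62 to 5.41 CPM in KO and was the only one of the 29 with an unadjusted p above 0.05 (0.065).

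Several members are genes of the cell types that marked the KO libraries. Cd5l, a protein secreted by macrophages, was at 3.38, 1.61 and 2.70 CPM in Ctrl and 18.6, 95.4 and 6.88 CPM in KO. Fcgr4, an Fc receptor of myeloid cells, was at 0.697 to 0.898 CPM in Ctrl and 2.91, 21.7 and 1.82 CPM in KO. Fpr1, a receptor of neutrophils for bacterial peptides, was at 0 to 0.268 CPM and 1.06, 3.01 and 0.876 CPM. All 3 were highest in KO replicate 2, as the myeloid marker sum was, and the part of myeloid cells in them was not tested. The immunoglobulin segments Igkv6-25 and Igkv6-20 were at 6.09, 126 and 4.79 CPM and at 8.69, 4.74 and 7.15 CPM in KO, with Ctrl values of 0.322 to 1.90 and 0.375 to 1.83 CPM. Igkv6-20 was lowest in KO replicate 2, the library with the most B cell markers. Reads of such segments can be divided among near-identical copies.

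Xist, the RNA that coats and silences the inactive X chromosome of female cells, was at 1.43, 4.18 and 2.59 CPM in Ctrl and 47.4, 691 and 27.0 CPM in KO. The female KO replicate 2 had the highest level, and the male KO replicates 1 and 3 had 6.45 times or more the highest Ctrl level. Ddx3y, a gene of the Y chromosome, was at 178 to 205 CPM in Ctrl, at 194 and 163 CPM in KO replicates 1 and 3 and at 0.431 CPM in KO replicate 2, which matched the labelled sex in all 6 libraries. The log2 fold change of Xist was 6.54 (SE 2.03) with all libraries and 3.76 without KO replicate 2, with an adjusted p of 0.864 by edgeR's quasi-likelihood test in the former. Tsix, which overlaps Xist on the other strand, was at 0.323 CPM or less in every library.

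The 7 genes lower in all 3 KO libraries all encode proteins, and their Ctrl means were 1.64 to 5.14 CPM. Klra9 is a member of the Ly49 receptors of natural killer cells (chr6:130178675-130193112, minus strand) and was at 6.18, 3.64 and 4.53 CPM in Ctrl and at 0.212, 0.344 and 0.202 CPM in KO. Its highest KO value was 10.6 times under its lowest Ctrl value (log2 fold change -4.22, SE 0.742, adjusted p = 0.303 by edgeR's quasi-likelihood test). Styk1, a receptor-like kinase, was at 4.86, 4.13 and 4.58 CPM in Ctrl and 0.424, 0.775 and 1.08 CPM in KO (log2 fold change -2.57, SE 0.523). Both genes lie on chromosome 6, in the region of the natural killer receptor genes. Among related genes looked at after these values were seen, Klra7 was at 2.05 to 4.12 CPM in Ctrl and 0.848, 2.84 and 0.809 CPM in KO, and Klra3 at 1.07 to 2.11 CPM and 0.742 to 1.46 CPM, so the groups overlapped for both. Members of this family are similar enough that reads can be divided among them. The mice were of mixed strain background, and which strain's copy of this region each mouse carried was not tested.

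Lrrc73 was at 3.17 to 3.83 CPM in Ctrl, with 0.944 to 1.48 CPM in KO. Aqp5, a water channel of secretory epithelia, was at 2.48 to 3.86 CPM and 0.0861 to 1.15 CPM, and Elfn1, a protein of synapses, at 2.43 to 3.17 CPM and 0.053 to 1.03 CPM. Has1, an enzyme that makes hyaluronan, was at 9.35, 3.16 and 2.91 CPM in Ctrl and 0.371, 0.172 and 0.472 CPM in KO, and was the 1 gene of the 7 with an unadjusted p above 0.05 (0.0691). No Ctrl library of these genes lay under 1.23 CPM, and the highest KO value of any was 1.48 CPM.

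The libraries of mice with the same deletion and the NPM-ALK transgene (ALKKO, 3 males of 25, 21 and 19 weeks) give a second set of levels in thymocytes without Dnmt1. A comparison of ALKKO with Ctrl would share the Ctrl libraries and was not made here, and their values stand beside those of KO. Gh was at 12.9 to 23.6 CPM in ALKKO and Gm16572 at 15.6, 12.6 and 8.37 CPM. Tuba3b was at 17.3 to 27.5 CPM, Dazl at 8.72 to 11.5 CPM and Lnp1 at 3.39 to 13.4 CPM. Other genes of the 29 were less even across ALKKO replicates 1 to 3. Gm15930 was at 5.51, 4.84 and 0 CPM, Eif3s6-ps2 at 0.908, 1.32 and 0 CPM and Igkv6-20 at 0.303, 1.91 and 4.53 CPM. Tex11 was at 0.957 to 1.72 CPM in ALKKO, Aqp5 at 0.484, 7.72 and 1.28 CPM and Has1 at 0, 18.2 and 0.128 CPM. Elfn1 was at 1.39 to 2.81 CPM, which overlapped Ctrl, and Lrrc73 at 1.28 to 2.33 CPM. Klra9 was at 0 to 0.121 CPM and Styk1 at 0.605 to 2.03 CPM. The Dnmt1 level in ALKKO was 205 to 244 CPM.

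The machinery of DNA methylation was represented by 22 genes, of which 1 was higher and 1, Dnmt1, lower at an unadjusted p under 0.05, where 4.02% and 1.5% of all genes were, with a median of -0.10. The gene that was higher was Zbtb38, a reader of methylated CpG, at 30.4 to 38.5 CPM in Ctrl and 52.5, 75.3 and 54.6 CPM in KO. The de novo methyltransferase Dnmt3a was at 183 to 191 CPM in Ctrl and 210, 149 and 171 CPM in KO, and Dnmt3b at 7.82 to 10.1 CPM and 8.02 to 10.6 CPM, with overlapping groups for both. Uhrf1, which brings DNMT1 to newly replicated DNA, was at 250 to 296 CPM in Ctrl and 193, 126 and 231 CPM in KO (log2 fold change -0.55, SE 0.350).

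Of 40 imprinted genes, 28 were tested, and 1 was higher and 1 lower at an unadjusted p under 0.05, where 4.02% and 1.5% of all genes were, with a median of 0.26 that fell to 0.06 without KO replicate 2. Igf2r, the receptor that clears insulin-like growth factor 2, was at 106 to 118 CPM in Ctrl and 152, 139 and 127 CPM in KO (log2 fold change 0.31, SE 0.133). Nnat, a small membrane protein read from the paternal allele, was at 33.4, 6.86 and 26.4 CPM in Ctrl and 0.636, 4.13 and 1.55 CPM in KO (log2 fold change -3.41, SE 1.20). The KO libraries lay apart from Ctrl for both genes, as they did for 6.19% of all genes tested on the higher side and 6.24% on the lower side. The fat cell marker Lep, which encodes leptin, moved with Nnat across the libraries. Lep was at 32.8, 7.99 and 28.1 CPM in Ctrl and 1.17, 8.44 and 4.45 CPM in KO. The fat cell list as a whole did not follow Lep, with 6 genes higher and 4 lower in KO. It summed to 971 to 2662 CPM in Ctrl and to 190, 3532 and 2226 CPM in KO. The part of fat cells in Nnat was not tested. Igf2 was at 2.14 to 3.88 CPM in Ctrl and 5.19, 6.97 and 14.8 CPM in KO, with an unadjusted p of 0.281 by edgeR, and H19, its maternally read neighbour, at 8.36 to 13.6 CPM and 7.26, 4.74 and 72.2 CPM. Both were highest in KO replicate 3, the library with heart genes; they were named after their values were seen.

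The 36 cell cycle genes were all lower in KO by their fold change, against 45.0% of all genes, with a median of -0.40. At an unadjusted p under 0.05, 2 were lower and 0 higher by edgeR, where 1.5% and 4.02% of all genes were. DESeq2 had 3 lower. The fit on the 9 thymocyte libraries had 14 of the 36 lower, and leaving out KO replicate 3 gave 6. Cdk2, the kinase that drives entry into S phase, was at 173, 183 and 139 CPM in Ctrl and 120, 82.3 and 124 CPM in KO (log2 fold change -0.60, SE 0.165). Mcm7, a subunit of the replicative helicase, was at 173 to 233 CPM in Ctrl and 150, 113 and 178 CPM in KO, where KO replicate 3 lay within the Ctrl range. The 3 KO libraries were unlike one another in this list. Its median against the Ctrl mean, with 0.1 CPM added to each value, was -0.35 in KO replicate 1, -1.10 in KO replicate 2 and -0.06 in KO replicate 3, and -0.18 to 0.20 in the Ctrl libraries. Without KO replicate 2, 30 of the 36 were lower and the median was -0.20. The list is lowest in the library in which thymocyte genes are lowest, and the part of cell makeup in it was not tested.

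Of 39 interferon-stimulated genes tested, 1 was higher at an unadjusted p under 0.05 and 0 were lower by edgeR, where 4.02% and 1.5% of all genes were. The median was 0.62. Genes of this list answer interferon, and some are raised by double-stranded RNA. Here the list summed to 1727 to 1939 CPM in Ctrl and to 1765, 4869 and 1441 CPM in KO, so that it was raised in KO replicate 2 alone. Without that library the median was -0.31, and 31 of the 39 were lower. Effector and innate-like T cell genes had the same form, with a median of 0.61 over 34 genes tested that became -0.03 without KO replicate 2. Of the 34, 2 had an unadjusted p under 0.05 by edgeR, both higher, where 4.02% of all genes were higher. They were Eomes and the chemokine Ccl3. Eomes, a transcription factor of memory and natural killer cells, was at 2.01, 19.4 and 1.95 CPM in KO and 0.643 to 1.85 CPM in Ctrl. Ccl3 was at 0.901, 1.55 and 1.15 CPM in KO and 0.264 to 0.647 CPM in Ctrl. Of the 22 p53 targets and the 41 thymocyte stage genes tested, none had an unadjusted p under 0.05 by edgeR or by DESeq2, with medians of -0.07 and -0.19. Without KO replicate 2 the thymocyte median was -0.01.

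**Figure D5:**
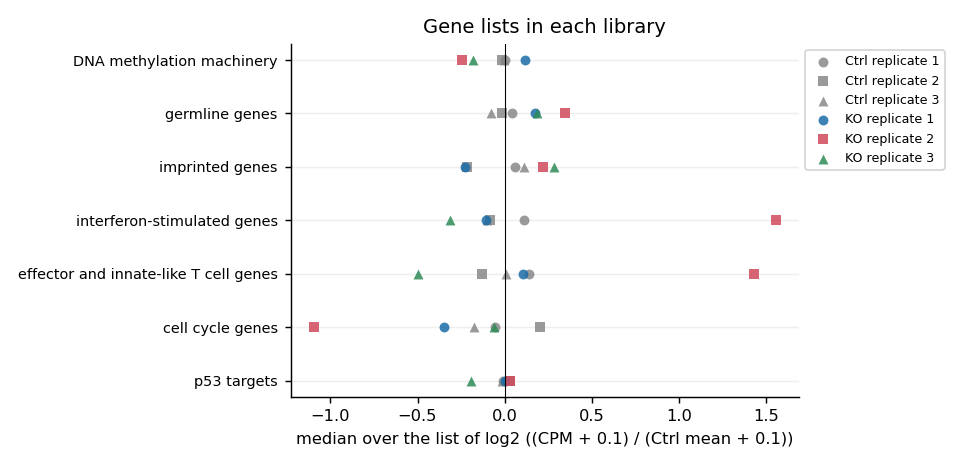
Median over each gene list of the log2 ratio of a library to the Ctrl mean, with 0.1 CPM added to both, for the 3 Ctrl libraries (grey) and the 3 KO libraries (colours). KO replicate 2 reaches 1.55 for interferon-stimulated genes and -1.10 for cell cycle genes, and germline genes are above the Ctrl libraries in all 3 KO libraries, at 0.17, 0.34 and 0.19. Medians cover only members that passed the low-count filter, which germline genes silent in Ctrl pass only through a group that expresses them.

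For the marker lists of other cells, the counts at an unadjusted p under 0.05 were 18 of 21 B cell genes, 6 of 8 plasma cell genes, 17 of 18 heart genes, 5 of 21 myeloid genes and 1 of 24 thymic stromal genes, all higher in KO by edgeR. Over all genes tested, 4.02% were higher at that threshold. DESeq2 counted 5 B cell, 4 plasma cell, 3 heart, 6 myeloid and 2 thymic stromal genes on the same table. None of the 7 erythroid and 10 fat cell genes reached it by edgeR, and DESeq2 had 1 fat cell gene lower. With KO replicate 2 left out, no B cell or plasma cell gene was counted, and the B cell median went from 2.97 to -0.25 and the plasma cell median from 2.04 to -0.16. The myeloid median went from 0.90 to 0.25 and its count from 5 to 1, while 11 myeloid genes were counted with KO replicate 3 left out. With KO replicate 3 left out, the heart median went from 6.02 to -0.16, and 1 heart gene was counted. Fat cell genes summed to 971 to 2662 CPM in Ctrl and to 190, 3532 and 2226 CPM in KO, and erythroid genes to 388 to 585 CPM and 255, 2434 and 1673 CPM. The stromal sum was 3085 to 3192 CPM in Ctrl and 3051, 1917 and 3069 CPM in KO. Members of this list went both ways in KO replicate 2. Prss16 was at 80.1 CPM in it against 878 to 1097 CPM in Ctrl, and Ccl25 at 53.8 against 449 to 514 CPM. Kdr was at 91.2 CPM against 5.57 to 20.1 CPM, and Cdh5 at 87.6 against 12.1 to 32.1 CPM. None of these lists contributed a gene to the 29 or the 7.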

How the data were processed

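RNA-seq was performed on RNA of 12 mice, 3 per group, with stranded libraries enriched for poly-A RNA, per the paper. The deposited files held raw read counts per gene. Per the submitters' processing notes, the authors made them with Trim Galore, STAR, Picard 2.19.2 and HTSeq on mm10. The strand setting of the counting is not given in the sources used here. Alignments to several places were not counted. They equalled 39.2 to 45.6% of everything tallied in the files of the 6 libraries, unassigned reads included. Lines without a gene were dropped. Of 50600 gene IDs, 50376 matched GENCODE M21 (GRCm38) without version numbers. Counts of all 12 libraries were fitted with edgeR 4.0.16 in R 4.3.3 (TMM, filterByExpr, 1 term per group, robust quasi-likelihood test, Benjamini-Hochberg over 16052 genes), where the authors had used DESeq2; DESeq2 1.42.0 was an alternative. Called genes had an adjusted p below 0.05 and a log2 fold change past 1 in either direction. A gene was seen in all 3 KO libraries when the lowest KO value was at least 2 times the highest Ctrl value, raised to 3 reads where lower, with a KO mean of at least 1 CPM, and conversely for lower genes. Ratios with 1 to 3 Ctrl reads carry exact 95% intervals, which cover counting error only. Replicates were separate mice, and every pair of the libraries differed by more than sampling noise (lowest chi-square over its degrees of freedom 13.5).

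Members and the 16 gene lists were chosen with earlier results of these data known. The genes named were Dnmt1, the called genes, the 15 and 10 genes of smallest p among those higher and lower in all 3 KO libraries, up to 4 genes per list, Xist and Ddx3y; further genes, including the rest of the 29, were named after their values were seen. Promoter windows were taken from RefSeq. The fit was tested on simulated data. Alternatives were the normalization, filter, libraries, covariates, replicate block, thresholds and leaving out libraries.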

Additional observations from a re-analysis of the deposited data

How the results depend on the processing

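With 3 mice a group and KO libraries of unequal makeup, most counts moved with the libraries used, and the causes were not tested. Against 3 genes called, DESeq2 called 42, the 9 thymocyte libraries 7, KO replicate 1 alone 1, and a minimum of 10 counts in every library (which removes low genes), the 6 KO and Ctrl libraries alone and the replicate block 0; leaving out 1 library gave 0 to 3, with 0 only without Ctrl replicate 3. The fits with 0 calls had 602, 813, 576 and 965 genes at an unadjusted p under 0.05 in that order. Such genes were 5.52% of those tested, and 9.16% with the 9 thymocyte libraries, 3.59% with the block, 3.02% with sex as a covariate, 2.21% without KO replicates 2 and 3, and 1.88% (without Ctrl replicate 2) to 8.96% (without KO replicate 1) without 1 library, with 3.07% without KO replicate 2 and 2.14% without Ctrl replicate 1. KO replicate 2 was the only library of the series labelled female, so the sex covariate in effect left that library out. Deviations of same-numbered KO and Ctrl libraries from their group means had r of 0.207, -0.104 and 0.157, against -0.295 to 0.141 for the other pairs. These values cannot decide whether the numbers pair the mice, because KO replicates 2 and 3 carry genes of other cell types.

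Genes higher in all KO libraries numbered 53 at 1.5 times, 14 at 4 times, 46 at a mean of 0.3 CPM and 37 to 144 without 1 library (144 without KO replicate 1, 45 without KO replicate 2, 85 without KO replicate 3, 57 without Ctrl replicate 3); lower genes numbered 21, 2 and, without 1 library, 9 to 35 (14, 18 and 35 without KO replicates 1, 2 and 3 in turn, 21 and 17 without Ctrl replicates 2 and 3). Gh passed in 12 of 15 alternatives, Gm16572 in 11 and Tuba3b in 5. Dnmt1 was lower in each of 16.

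List medians moved as follows. With KO replicates 2 and 3 left out, they were 0.094 for DNA methylation machinery, -0.25 for imprinted genes, -0.18 for B cell, -0.94 for heart, -1.05 for erythroid and -3.14 for fat cell markers. Germline genes had -0.21 with the minimum of 10 counts and 0.044 with 6 libraries, and the sex-linked genes 6.56 with that minimum. With sex as a covariate, which in effect left out KO replicate 2, B cell and plasma cell markers had -0.26 and -0.17. These values therefore say nothing about sex apart from that library. Leaving out 1 library gave -0.26 to 3.49 for B cell markers, -0.16 to 2.51 for plasma cell markers and -0.16 to 6.61 for heart muscle markers. Of 767 alternatives of 50 single genes, 9 changed direction, of Mx1, Cmpk2, Pmaip1 and Peg3: -0.12, -0.39 and -0.10 for the first 3 with sex as a covariate, -0.12 to 1.85, -0.38 to 1.58 and -0.10 to 1.37 without 1 library, and -0.10 (Mx1), -0.51 (Cmpk2) and -0.13 (Peg3) without KO replicates 2 and 3.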

Other observations

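Some genes stood apart in KO replicate 1. Besides Tdrd9, Hif3a, a member of the hypoxia-inducible factors, was at 18.4 CPM in it and at 2.02 CPM or less in the other 5 libraries. Neb, which encodes nebulin of skeletal muscle, was at 17.0 CPM against at most 3.64 CPM, and the T-cell receptor segment Trdv4 at 8.80 CPM against at most 1.42 CPM. In Ctrl replicate 2, the immunoglobulin segment Igkv15-103 was at 124 CPM against at most 12.1 CPM in the others. These genes were named after their values were seen, and a single library gives no test.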
